A study of Mus musculus with 10 samples.

Results

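MicroRNAs (miRNAs) were compared between small extracellular vesicles (sEV) of brown adipose tissue (BAT) and of plasma in the libraries titled Sed, which are 5 of the 10 libraries of the series: Sed BAT (3 libraries) and Sed plasma (2). The comparison was confined to miRNAs that both deposited tables list under the same identifier, 394 of the 679 listed for BAT and the 436 listed for plasma. The mice were C57BL/6J, a standard inbred laboratory strain, and no genetic change or drug is named for any group. The labels attach sessions of 90 min, 2 per day for 4 weeks, to every sample, the Sed samples included, so Sed is known here by its title alone. Neither the age of the animals nor their number is in the labels. Whether replicates are separate animals is not stated either, and the spread behind every p-value may therefore be technical. Each vesicle source has its own table, so a difference between sources and one between tables or sequencing runs cannot be told apart.

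Small extracellular vesicles are membrane particles released by most cells, and they carry mature miRNAs into the blood. A mature miRNA is cut from the 5p or the 3p arm of a hairpin precursor and guides an Argonaute protein to messenger RNAs that pair with its seed, the bases near its 5′ end, so miRNAs with the same seed can share targets. Brown adipose tissue burns fat for heat, and its adipocytes are known for the miR-193b and miR-365 cluster, miR-378a, which lies inside the gene of the coactivator PGC-1β, and the cold-responsive miR-32. Plasma vesicles are known to carry miRNAs of red cells (miR-451a), platelets and liver (miR-122). In bulk vesicle RNA, fewer vesicles from a cell type and fewer copies per vesicle cannot be told apart.

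The mature sequences below belong to the miRNAs on which the comparison turns. They come from RefSeq (build GRCm38.p6), are written 5′ to 3′ with the seed (bases 2 to 8) in capitals, and are shown because miRNAs with an identical seed fell on opposite sides of the comparison. The first 3 share the miR-25 seed, the next 2 the miR-146 seed and the next 4 the miR-16 seed.
miR-32-5p: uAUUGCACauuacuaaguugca
miR-25-3p: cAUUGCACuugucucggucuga
miR-92a-3p: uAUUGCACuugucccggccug
miR-146b-5p: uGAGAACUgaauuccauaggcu
miR-146a-5p: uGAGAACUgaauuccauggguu
miR-15a-5p: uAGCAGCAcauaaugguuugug
miR-322-5p: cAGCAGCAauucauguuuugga
miR-497a-5p: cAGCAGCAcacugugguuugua
miR-16-5p: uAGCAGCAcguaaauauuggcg

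The following pairs are shown because both members of a seed fell on the same side, BAT for miR-193 and plasma for miR-200c and miR-429.
miR-193a-3p: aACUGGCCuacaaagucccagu
miR-193b-3p: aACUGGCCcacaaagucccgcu
miR-200c-3p: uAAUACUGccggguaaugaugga
miR-429-3p: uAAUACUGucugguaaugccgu
The last 3 sequences are the most abundant plasma miRNA and the 2 arms of the hairpin whose main arm differed between the sources.
miR-451a: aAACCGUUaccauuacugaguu
miR-199a-5p: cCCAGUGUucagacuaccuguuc
miR-199a-3p: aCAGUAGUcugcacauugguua

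The paralogs with a shared seed lie in separate places in the genome (RefSeq coordinates, GRCm38.p6, host genes from GENCODE M21). miR-32-5p is at chr4:56895272-56895293 on the minus strand in an intron of Tmem245, whereas miR-25-3p is at chr5:138165332-138165353 on the minus strand within Mcm7. miR-146b-5p is at chr19:46342790-46342811 on the plus strand in an intron of Mfsd13a, and miR-146a-5p is at chr11:43374435-43374456 on the minus strand with no host gene. miR-15a-5p at chr14:61632075-61632096 and the copy of miR-16-5p at chr14:61631936-61631957 both lie on the minus strand in an intron of Dleu2, so these neighbours share a host gene. miR-16-5p has a second copy at chr3:69009918-69009939 in an intron of Smc4. miR-193a-3p (chr11:79712009-79712030) and miR-193b-3p (chr16:13449570-13449591) have no host gene in this annotation.

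The BAT libraries held 104064 to 169345 miRNA reads and the plasma libraries 1341678 and 1798169. Replicates agreed less well in plasma: the correlation of log2 levels across miRNAs was 0.65 between the plasma libraries and 0.94 to 0.98 between BAT libraries. Of 116 miRNAs with at least 100 reads in a plasma library, 9 had none in the other, against 0 of 93 in BAT. Sed BAT replicate 2 stood apart from the other BAT libraries: it held 3804 reads of miR-378a-3p against 28351 and 24801, and its most abundant miRNA was miR-126a-3p.

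Fewer kinds of miRNA were seen in the plasma libraries than in the BAT libraries, although the plasma libraries were deeper. Whether this lies in the vesicles or in how the libraries were made was not tested. Of the 394 miRNAs, 334, 318 and 323 had a read in the BAT libraries and 213 and 280 in the plasma libraries. At a common depth of 103259 reads, 316.8 ± 1.8 miRNAs would have been seen in BAT (SD, n = 3) and 170.9 ± 27.5 in plasma (SD, n = 2). The 5 libraries did not overlap in this count, but 3 libraries against 2 cannot give an exact two-sided permutation p below 0.2. The 10 most abundant miRNAs took 62.4%, 50.8% and 64.97% of miRNA reads in the BAT libraries and 86.4% and 81.2% in the plasma libraries.

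In plasma 1 miRNA dominated. miR-451a, which is made in red cells by a route that bypasses Dicer, took 69.8% and 52.8% of plasma miRNA reads and 6.04%, 3.75% and 3.34% of BAT miRNA reads. The leading BAT miRNA was miR-378a-3p, with 16.7%, 3.66% and 21.4% of reads in BAT and 0.499% and 0.153% in plasma, where it ranked 27. The liver miRNA miR-122-5p ranked 2 in plasma, with 1.82% and 6.21% of reads, and 225 in BAT, with 0.00768%, 0.0048% and 0.00345%. Both sources had miR-126a-3p, of endothelial cells, miR-16-5p and let-7f-5p among their 10 most abundant, and miR-22-3p was also in both.

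**Figure D1:**
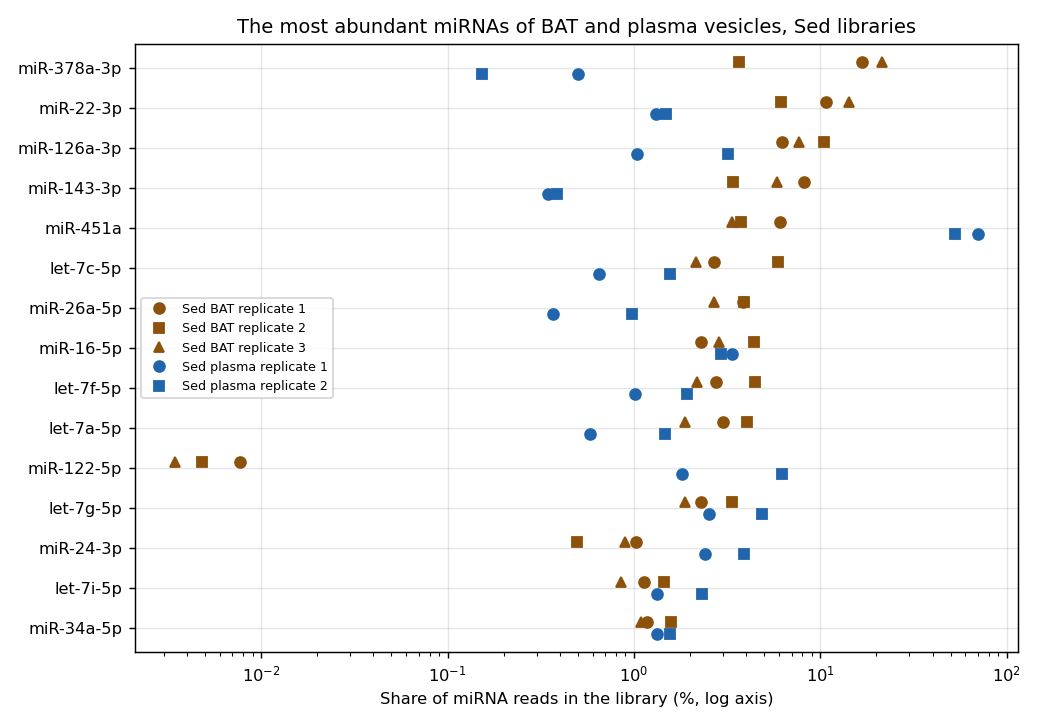
Share of miRNA reads in each of the 5 Sed libraries (horizontal, percent, log axis) for every miRNA among the 10 most abundant of BAT (brown) or of plasma (blue), one symbol per library. miR-451a lies above 50% in both plasma libraries, and miR-122-5p is below 0.01% in the 3 BAT libraries.

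Levels were compared with edgeR's quasi-likelihood test on the read counts of the 5 libraries, with TMM scaling (trimmed mean of M-values, which sets the middle of the shared miRNAs equal) and Benjamini-Hochberg adjustment over 207 miRNAs that passed the filter on low counts. Of these, 81 (39.1%) passed an adjusted p of 0.05: 40 (19.3%) were higher in BAT and 41 (19.8%) higher in plasma, and 104 had an unadjusted p under 0.05. For all 81 the BAT libraries lay on one side of the plasma libraries, as they did for 64.3% of the 207. The filter works at the depth of the BAT libraries, so a miRNA well counted in plasma and absent from BAT could fail it, and 187 of the 394 were not tested.

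The direction of a middling difference depends on the scale. The TMM factors were 2.06, 2.81 and 2.08 for BAT and 0.302 and 0.277 for plasma, so a miRNA with the same share of reads in both sources has a log2 fold change near −2.99 on this scale. Scaled by library size alone, log2 fold changes rose by 2.99 (median), and 140 miRNAs passed, 127 higher in BAT and 13 in plasma. With upper-quartile factors the median rose by 0.95 and 89 passed, 58 and 31. All 40 BAT calls were kept under library size alone. Of the 41 plasma calls 13 were kept and 28 lost, and 9 of the lost changed sign: let-7d-5p, let-7f-5p, miR-16-5p, miR-21a-5p, miR-27a-3p, miR-30b-5p, miR-92a-3p, miR-98-5p and miR-99a-5p. For these 9, "higher in plasma" holds only relative to the other shared miRNAs.

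Of the 81 calls, 16 were made again under each alternative, of 16 run, in which the miRNA was tested. The 5 higher in BAT were miR-193a-3p, miR-193b-3p, miR-32-5p, miR-1b-5p and miR-145a-5p. The 11 higher in plasma were miR-451a, miR-122-5p, miR-122-3p, miR-429-3p, miR-9-5p, miR-25-3p, miR-205-5p, miR-31-5p, miR-24-3p, miR-146a-5p and miR-99b-5p.

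**Figure D2:**
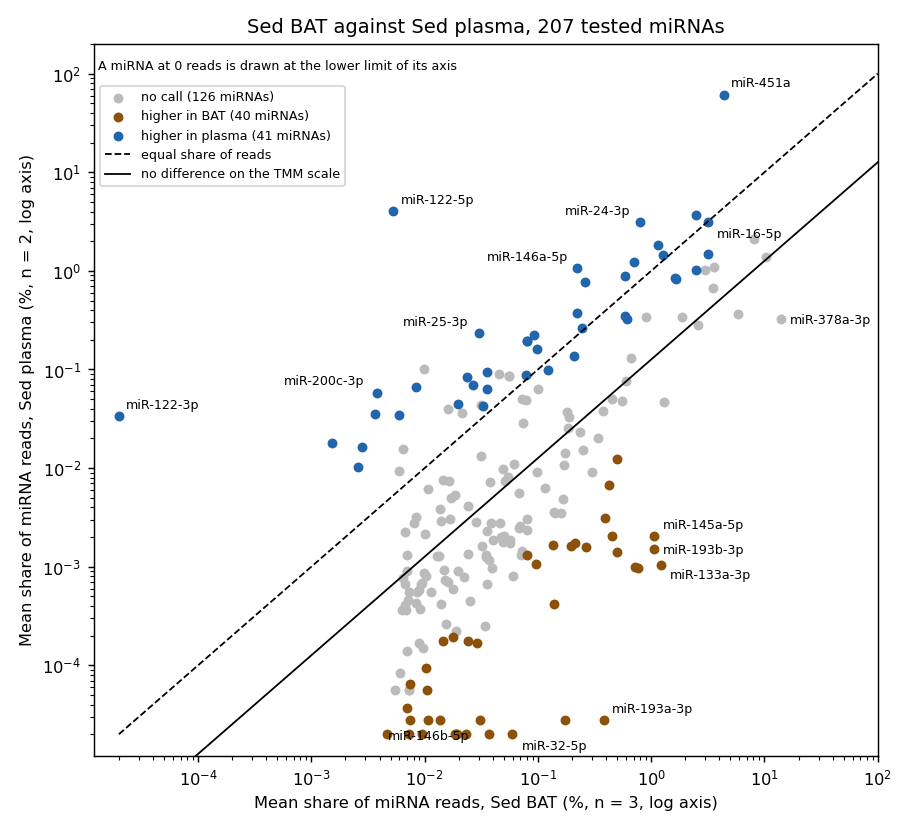
Mean share of miRNA reads in Sed BAT (horizontal, n = 3) and Sed plasma (vertical, n = 2) for the 207 tested miRNAs, both on log axes, with the 40 miRNAs called higher in BAT in brown and the 41 called higher in plasma in blue. The solid line marks no difference on the TMM scale and the dashed line an equal share of reads: miRNAs between the lines, such as miR-16-5p, change sides with the scale.

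Most of the 10 largest fitted differences towards BAT belonged to miRNAs with almost no read in plasma, where the order rests on fitted values that are no bounds. miR-193a-3p, a paralog of the brown fat miRNA miR-193b, had 860, 150 and 588 reads in the BAT libraries and 0 and 1 in the far deeper plasma libraries. The ratio on the TMM scale was 1643, with an exact 95% counting interval of 294.5 to 64939 and an adjusted p of 0.005. miR-32-5p had 91, 43 and 97 reads in BAT and 0 in both plasma libraries, which makes it at least 79.2-fold higher in BAT (adjusted p = 0.006). These bounds set the plasma group at 3 reads in all, the limit that a count of 0 allows, and cover counting error only.

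Among other miRNAs at 0 in both plasma libraries, miR-146b-5p had 54, 51 and 34 reads in BAT (at least 47.6-fold higher, adjusted p = 0.007). miR-486a-3p, miR-214-5p, miR-199b-5p and miR-339-5p were at least 28.4, 27.4, 25.0 and 24.3-fold higher in BAT, in that order. In all, 9 of the 40 BAT calls had no plasma read and another 10 had 1 to 3. Their size therefore rests on the depth of the plasma libraries, and the fitted fold change of such a miRNA is not a bound.

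The muscle miRNAs miR-1b-5p, miR-133a-3p and miR-206-3p, which take part in the making and upkeep of striated muscle, were also among the 10 largest BAT differences. miR-1b-5p had 233, 258 and 162 reads in BAT and 0 and 1 in plasma, a ratio of 671.4 (counting interval 120.1 to 26560). miR-133a-3p had 1833, 1352 and 1469 reads in BAT and 28 and 0 in plasma, which gave a log2 fold change of 7.28 with a standard error (SE, written after ± from here) of 1.87 and an adjusted p of 0.023. miR-206-3p had 909, 1139 and 768 reads in BAT and 26 and 0 in plasma, or 6.67 ± 1.86 on the log2 scale (adjusted p = 0.032). The BAT libraries were alike and the groups did not overlap for the 3 miRNAs, but the plasma libraries disagreed on the latter 2, whose calls were lost when any single BAT library was left out (adjusted p of 0.0635 to 0.118).

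The largest difference towards plasma was that of the liver miRNA miR-122. miR-122-5p had 24360 and 111603 reads in plasma and 13, 5 and 4 in BAT, a log2 fold change of −12.51 ± 0.94 (adjusted p = 0.000578). Its 3p arm had 212 and 934 reads in plasma and none in BAT. On the TMM scale it was at least 371.5-fold higher in plasma (adjusted p = 0.007). This bound would be lower with library size alone, where log2 fold changes rose by 2.99 (median). The groups were far apart for both arms, and both calls held in each alternative tested.

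miR-451a had 936594 and 948848 reads in plasma and 10223, 3901 and 3883 in BAT, a log2 fold change of −6.74 ± 0.51 (adjusted p = 0.000578). miR-200c-3p and miR-429-3p, which hold cells in an epithelial state, had 660 and 1209, and 696 and 331, reads in plasma and at most 10 and 8 in a BAT library. Their log2 fold changes were −6.85 ± 0.94 and −6.10 ± 0.92 (adjusted p = 0.003 and 0.004). The epithelial miRNAs miR-205-5p (−5.54 ± 0.80) and miR-31-5p (−5.46 ± 0.76) were likewise higher in plasma (adjusted p = 0.003 for both), with at most 4 and 12 reads in a BAT library. These 4 epithelial miRNAs were rare in both sources, with at most 0.0672% of the reads of a plasma library.

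The neuronal miRNA miR-9-5p had 104 and 505 reads in plasma and 3, 2 and 1 in BAT (−6.50 ± 0.97, adjusted p = 0.004). miR-9b-3p had 236 and 2051 reads in plasma and 11, 14 and 6 in BAT (−6.06 ± 1.12, adjusted p = 0.009). It lies on the opposite strand of the bases that encode miR-9-5p at each of the 3 Mir9 genes, and whether reads were counted by strand is not given in the sources used here. miR-25-3p, of the miR-106b-25 cluster, closes the list of the 10 largest: it had 2511 and 5024 reads in plasma and 36, 42 and 34 in BAT (−5.97 ± 0.64, adjusted p = 0.002).

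miRNAs were then grouped in lists, whose counts are to be read against the 19.3% of all 207 called higher in BAT, the 19.8% called higher in plasma and the median of 0.78. Of 21 miRNAs known to promote brown fat 15 were tested, 8 had no call, 6 were higher in BAT (miR-193a-3p, miR-193b-3p, miR-365-3p, miR-32-5p, miR-378a-5p and miR-30c-5p) and miR-30b-5p was higher in plasma, with a list median of 2.46. The 6 BAT calls were 4 without BAT replicate 1 or 3 and 5 without BAT replicate 2. Together the list held 23.8%, 13.4% and 28.1% of BAT miRNA reads and 1.06% and 1.70% of plasma miRNA reads. miR-193b-3p had 996, 1696 and 1133 reads in BAT and 13 and 37 in plasma (6.38 ± 0.92, adjusted p = 0.003). Its cluster partner miR-365-3p had 726, 1288 and 552 reads in BAT and 0 and 36 in plasma (6.31 ± 1.86, adjusted p = 0.037). For each partner every BAT library was above every plasma library, but the call of miR-365-3p was lost without any single BAT library (adjusted p of 0.0753 to 0.0893).

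The most abundant BAT miRNA did not pass. miR-378a-3p had 28351, 3804 and 24801 reads in BAT and 6695 and 2743 in plasma, a log2 fold change of 2.59 ± 0.98 (adjusted p = 0.080). On the TMM scale Sed BAT replicate 2 overlapped the plasma libraries. Without that library the change was 3.34 (adjusted p = 0.056), and it passed with upper-quartile factors (3.48, adjusted p = 0.032) and with library size alone (5.43, adjusted p = 0.005). Its minor arm miR-378a-5p had 712, 346 and 858 reads in BAT and 3 and 47 in plasma and was higher in BAT (5.46 ± 1.41, adjusted p = 0.023).

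Of the 12 miRNAs known to restrain brown fat, 10 were tested: 2 were higher in BAT and 6 in plasma, with a median of −2.69. The 6 were miR-27a-3p and miR-27b-3p, repressors of the brown fat regulator PRDM16, miR-34a-5p, miR-93-5p, let-7i-5p and miR-199a-3p. miR-27b-3p had 12036 and 15574 reads in plasma and 1155, 483 and 713 in BAT (−3.52 ± 0.47, adjusted p = 0.003). By share of reads the list hardly differed, with 4.73% to 5.82% in BAT and 4.21% and 5.52% in plasma, and under library size alone 4 members were higher in BAT and 0 in plasma. The 2 higher in BAT on the TMM scale were miR-133a-3p, which is also a muscle miRNA, and miR-214-3p (47, 32 and 33 reads in BAT and 3 and 2 in plasma, 4.42 ± 0.94, adjusted p = 0.012), which is also a fibroblast miRNA. Both calls were lost without BAT replicate 1 or 3.

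The labelled tissue was checked against its markers. Of 12 tested adipocyte miRNAs 5 were higher in BAT and 0 in plasma (median 2.13): miR-145a-5p, miR-193b-3p, miR-107-3p, miR-335-5p and miR-30a-5p. The other 7 had no call, and the 5 were 2 without BAT replicate 1 or 3. miR-145a-5p, which is abundant in smooth muscle and stromal cells as well, had 1684, 1429 and 965 reads in BAT and 9 and 61 in plasma (5.97 ± 1.06, adjusted p = 0.008). All 13 adipocyte miRNAs had reads in each BAT library, and 10 and 11 of them had reads in the plasma libraries.

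BAT vesicles also carried miRNAs listed for fibroblasts, smooth muscle and striated muscle, and which cells released them was not tested. Of 10 tested fibroblast and smooth muscle miRNAs 5 were higher in BAT and 3 in plasma (median 3.69), and the 5 were 3 without BAT replicate 1 or 3. The 3 were miR-21a-5p, which changed sign with library size alone, and miR-199a-3p and miR-199b-3p, whose sequences are identical, so their shared reads count for both. Of 5 tested muscle miRNAs 3 were higher in BAT and 1 in plasma (median 6.67), against 1 and 0 without any single BAT library. The exception, miR-499-5p, which lies in the slow myosin gene Myh7b, had 135, 98 and 73 reads in BAT and 762 and 2167 in plasma (−3.18 ± 0.71, adjusted p = 0.014). The 5 muscle miRNAs summed to 3.11%, 5.81% and 3.34% of BAT reads and 0.207% and 0.651% of plasma reads. The abundant miR-1a-3p had 2159, 3200 and 1405 reads in BAT and 1962 and 9537 in plasma and did not pass (−0.64 ± 0.67, adjusted p = 0.46). The part of muscle lying next to BAT in these differences was not tested.

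On the TMM scale liver miRNAs were on the plasma side. Of 4 tested liver miRNAs 3 were higher in plasma and 0 in BAT, with a median of −8.03, or −6.42 with miR-122-3p at its bound. Beside miR-122 this was miR-192-5p, with 656 and 7192 reads in plasma and 146, 99 and 110 in BAT (−4.31 ± 0.96, adjusted p = 0.015). miR-194-5p, of the same cluster, had 168 and 255 reads in plasma and 31, 36 and 48 in BAT (−1.75 ± 0.68). It did not pass, and its sign changed under 1 of the 4 scalings. For the list, library size alone gave 2 members higher in plasma and 0 in BAT (median −5.41). The list took 1.89% and 7.46% of plasma reads and 0.113% to 0.1396% of BAT reads.

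Red cell miRNAs were not uniformly on the plasma side. The 7 members took 70.1% and 52.8% of plasma reads and 3.50% to 6.22% of BAT reads, nearly all of it miR-451a. miR-144-3p, transcribed together with miR-451a, had 0 and 29 reads in plasma and 162, 15 and 81 in BAT (3.26 ± 1.76, adjusted p = 0.19). miR-486a-5p, identical in sequence to miR-486b-5p, had 2233 and 115 reads in plasma and 51, 111 and 34 in BAT (−3.68 ± 1.31, adjusted p = 0.065). With miR-486a-3p higher in BAT, 1 of 6 tested members was called in each direction, and the part of red cell RNA in the other plasma calls was not tested.

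Of 5 tested platelet miRNAs 3 were higher in plasma and 0 in BAT (median −2.52): miR-24-3p, miR-191-5p and miR-21a-5p, the last of which changed sign with library size alone. By share of reads the list was at 9.55% to 13.7% in BAT and 5.55% and 9.23% in plasma. Under library size alone 1 member was higher in BAT and 1 in plasma (median 0.51). miR-24-3p had 32273 and 69853 reads in plasma and 1737, 513 and 1034 in BAT (−4.90 ± 0.59, adjusted p = 0.002). miR-191-5p had 18326 and 20022 reads in plasma and 1008, 942 and 735 in BAT (−3.80 ± 0.38, adjusted p = 0.002). Of 6 tested leukocyte miRNAs only miR-146a-5p, a brake on NF-κB signalling, was called, towards plasma. The myeloid miR-223-3p had 0 and 1818 reads in the plasma libraries against 125, 73 and 83 in BAT, so the plasma libraries disagreed on it, and its log2 fold change of −2.52 ± 2.01 was 9.69 without plasma replicate 2 and −3.56 without plasma replicate 1.

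Endothelial miRNAs gave 4 plasma calls and 0 BAT calls among 9 tested (median −2.02): miR-24-3p, miR-27b-3p, miR-222-3p and miR-27a-3p. miR-126a-3p itself had 10530, 10914 and 8866 reads in BAT and 13914 and 57315 in plasma and did not pass (−1.10 ± 0.54, adjusted p = 0.16). By share of reads the list was at 10.9% to 13.2% in BAT and 4.64% and 9.22% in plasma. Scaled by library size alone, 3 members were higher in BAT and 1 in plasma (median 0.96). miR-126a-3p then passed towards BAT (1.95, adjusted p = 0.026). Of 9 tested epithelial miRNAs 4 were higher in plasma and 0 in BAT, and those 4 also passed with library size alone, where 3 others were higher in BAT. The neural and endocrine list gave 2 plasma calls of 4 tested, miR-9-5p and miR-7a-5p (1827 and 941 reads in plasma, 62, 43 and 34 in BAT, −4.35 ± 0.75, adjusted p = 0.007).

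**Figure D3:**
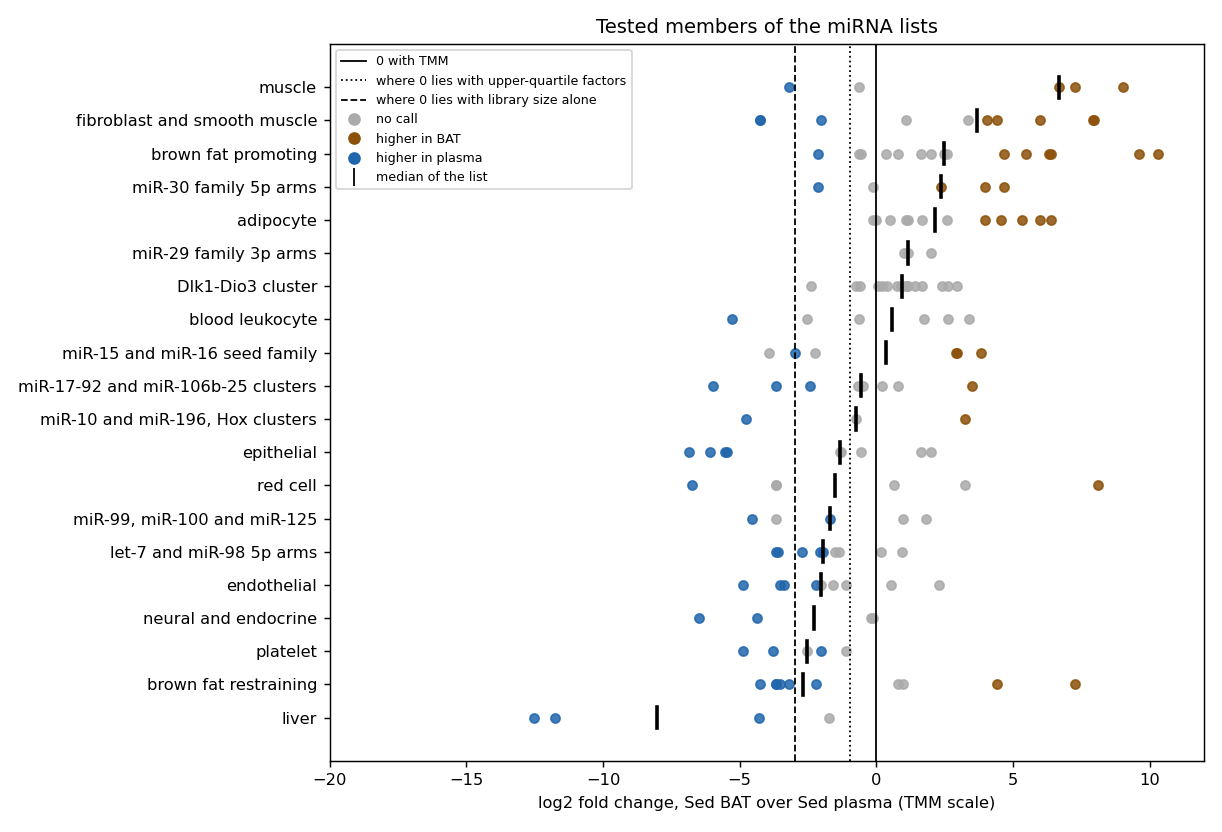
log2 fold change of Sed BAT over Sed plasma (horizontal, TMM scale) for the tested members of 20 lists, ordered by list median (black bars), with calls in brown (BAT) and blue (plasma). Vertical lines show where 0 lies with TMM, with upper-quartile factors and with library size alone. The muscle list lies farthest to the right and the liver list farthest to the left, with medians of 6.67 and −8.03.

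Families that are abundant in most tissues split by member. Among the 9 let-7 and miR-98 5p arms, which restrain growth genes such as Lin28 and Hmga2, 5 were higher in plasma and 0 in BAT (median −1.95). let-7g-5p (33713 and 87614 reads in plasma, 3865, 3474 and 2184 in BAT, −3.60 ± 0.45, adjusted p = 0.002) and let-7i-5p (−3.69 ± 0.44, adjusted p = 0.002) kept their sign under all 4 scalings, though neither passed with library size alone (adjusted p = 0.35 and 0.27). let-7b-5p, by contrast, had 3945 and 4849 reads in plasma and 3787, 4081 and 1932 in BAT (0.18 ± 0.44). The let-7 arms as a whole took 11.99% to 26.2% of BAT reads and 7.30% and 13.4% of plasma reads.

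The miR-30 family, in contrast, had 3 of 5 members higher in BAT (miR-30a-5p, miR-30c-5p and miR-30d-5p) and miR-30b-5p higher in plasma. miR-30c-5p had 407, 881 and 321 reads in BAT and 18 and 49 in plasma (4.68 ± 1.01, adjusted p = 0.013). miR-30b-5p had 843, 920 and 523 reads in BAT and 2024 and 8948 in plasma (−2.15 ± 0.63, adjusted p = 0.037), and changed sign with library size alone. The 3 miR-29 arms, which repress collagen genes, lay at 1.003 to 1.998 and none passed, by edgeR or limma-voom or at an unadjusted p under 0.05. DESeq2 and upper-quartile factors each called 1 higher in BAT, and library size alone or a mean of at least 50 counts called all 3. They took 0.580% to 1.02% of BAT reads and 0.019% and 0.0524% of plasma reads.

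The imprinted Dlk1-Dio3 cluster gave 0 calls among 16 tested miRNAs by edgeR, with 13 above 0 and a median of 0.95. At an unadjusted p under 0.05 it had 1, DESeq2 called 1 and limma-voom 0, and with library size alone 11 were higher in BAT. The miR-17-92 and miR-106b-25 clusters, which are linked to proliferation, gave 1 BAT call, miR-19b-3p (127, 133 and 103 reads in BAT, 16 and 17 in plasma, 3.49 ± 0.73, adjusted p = 0.012), and 3 plasma calls, miR-25-3p, miR-92a-3p and miR-93-5p. Of the Hox cluster miRNAs miR-10b-5p was higher in BAT (141, 241 and 104 reads against 16 and 38, 3.25 ± 0.82, adjusted p = 0.021). miR-196b-5p was higher in plasma (214 and 84 reads against 10, 1 and 1, −4.75 ± 1.18, adjusted p = 0.021). miR-99a-5p and miR-99b-5p were higher in plasma, at −1.69 ± 0.38 and −4.56 ± 0.54 (adjusted p = 0.015 and 0.002), and miR-100-5p, of the same seed, lay at 1.80 ± 0.70 (adjusted p = 0.081).

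Some miRNAs with an identical seed were called in opposite directions. Among tested miRNAs with a sequence in RefSeq, 23 seeds had at least 2 miRNAs and 16 of these a call: 6 only in BAT, 7 only in plasma and 3 in both directions. The 3 are the seeds printed first above. The miR-30 family, called in both directions as described, entered this count without miR-30b-5p and miR-30d-5p.

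For the seed AUUGCAC, miR-32-5p had its 231 reads only in BAT, while miR-25-3p and miR-92a-3p were higher in plasma. miR-92a-3p had 836 and 3820 reads in plasma and 270, 274 and 237 in BAT (−2.43 ± 0.74, adjusted p = 0.039), and changed sign with library size alone. The difference of direction between miR-32-5p and miR-25-3p does not depend on the scaling, since both calls held in every alternative tested.

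For the seed GAGAACU, miR-146a-5p had 15736 and 16984 reads in plasma and 293, 320 and 213 in BAT (−5.27 ± 0.43, adjusted p = 0.000578). miR-146b-5p differs from it only near the 3′ end, as the printed sequences show, and had no plasma read. Its BAT call was lost in 1 alternative, the replicate block (adjusted p = 0.10). The BAT vesicles thus held both members, with 54, 51 and 34 reads of miR-146b-5p, and the plasma vesicles only miR-146a-5p at this depth.

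For the seed AGCAGCA, which restrains cyclins, miR-15a-5p (596, 524 and 477 reads in BAT, 34 and 197 in plasma, 2.93 ± 0.95, adjusted p = 0.050) was called in BAT just under the threshold and in 9 of 16 alternatives. miR-322-5p (192, 312 and 196 against 16 and 37, 3.83 ± 0.83, adjusted p = 0.013) and miR-497a-5p (147, 85 and 83 against 22 and 18, 2.96 ± 0.74, adjusted p = 0.021) were also higher in BAT, in 14 and 10 of the alternatives. miR-16-5p had 44926 and 52384 reads in plasma and 3873, 4585 and 3335 in BAT (−2.99 ± 0.35, adjusted p = 0.002), which is near an equal share of reads, 3.19% in BAT and 3.13% in plasma (0.034 with library size alone, adjusted p = 0.95). miR-16-5p and its neighbour at Dleu2, miR-15a-5p, thus lay apart on either scale, at −2.99 and 2.93 with TMM and at 0.034 and 5.96 with library size alone. Reads of miR-16-5p from Dleu2 and from its second copy in Smc4 cannot be told apart. The remaining members miR-15b-5p (2342 and 64 plasma reads) and miR-195a-5p (1308 and 1) differed widely between plasma libraries and had no call by edgeR (adjusted p = 0.065 and 0.37), while DESeq2 called miR-15b-5p higher in plasma (adjusted p = 0.005).

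**Figure D4:**
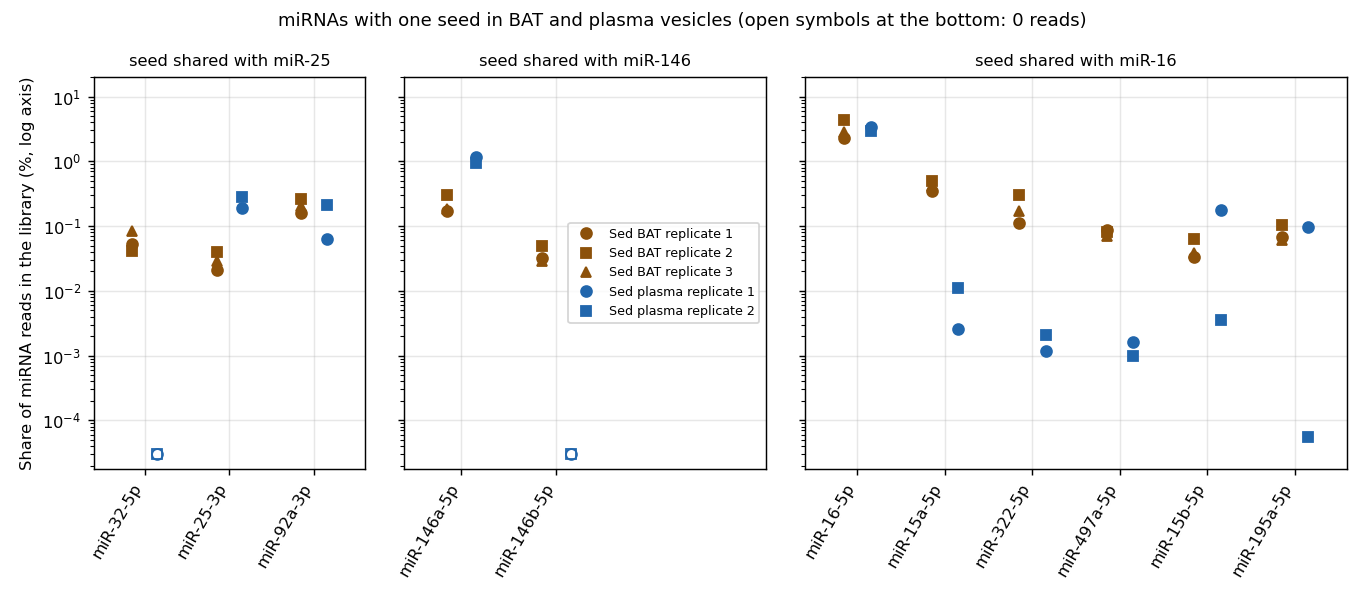
Share of miRNA reads in each Sed library (vertical, percent, log axis) for miRNAs with the seed of miR-25 (left), miR-146 (middle) and miR-16 (right), BAT in brown and plasma in blue. Open symbols at the bottom stand for 0 reads: miR-32-5p and miR-146b-5p had no read in either plasma library, while miR-25-3p and miR-146a-5p had larger shares in plasma.

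The 2 arms of a hairpin come from 1 precursor, so their ratio within a library does not depend on scaling between libraries. The 24 hairpins with at least 100 reads in each Sed library were compared. With 1 read added to each arm, the log2 ratio of 5p to 3p reads separated BAT from plasma libraries in 16 of 24, but where an arm has no read this ratio grows with depth. With such an arm set at 3 reads, 10 remained apart, and in all 10 the arm that is minor in plasma held a smaller share of the hairpin there than in BAT. Beside miR-199a these were miR-22, miR-27a, miR-27b, miR-98, miR-99b, miR-126a, miR-151, miR-378a and let-7i. Only arms at 0 were set at 3 reads, so some of the 10 rest on few BAT reads. miR-98-3p had 1, 4 and 1 reads in BAT and 0 and 2 in plasma, and let-7i-3p 2, 4 and 10 in BAT and 10 and 0 in plasma. In the shallower BAT libraries a smaller share of a minor arm was harder to see, which favours this shared direction.

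miR-199a, a hairpin of fibroblasts and stroma that is encoded in Dnm3os (chr1:162217844-162217866 for the 5p arm) and at a second site on chromosome 9, was the only 1 of the 24 whose main arm differed. The 5p and 3p arms had 546 and 161, 172 and 90, and 176 and 70 reads in the BAT libraries. They had 33 and 2666, and 18 and 3467, in the plasma libraries. The 5p arm thus made up 77.2%, 65.6% and 71.5% of the hairpin in BAT and 1.22% and 0.52% in plasma. In the test across miRNAs the 5p arm was higher in BAT (4.04 ± 0.95, adjusted p = 0.017) and the 3p arm higher in plasma (−4.25 ± 0.61, adjusted p = 0.003). Reads of the 3p arm cannot be told from miR-199b-3p, whose own 5p arm had 28, 18 and 27 reads in BAT and none in plasma. In the Exe libraries the 5p arm had 191, 230 and 293 reads against 35, 95 and 103 of the 3p arm in BAT, and 254 and 428 against 502 and 1646 in plasma, so the main arm differed there too, by less.

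For the other 9 the shift was in a minor arm. miR-99b-3p had 12, 4 and 1 reads in BAT and 0 in plasma, where the 5p arm had 6609 and 18762 reads against 482, 288 and 257 in BAT. miR-126a-5p had 230, 145 and 164 reads in BAT and 31 and 88 in plasma, although its 3p arm had more reads in plasma. Its own log2 fold change was 2.27 ± 0.75 (adjusted p = 0.051). These are raw reads, and the plasma libraries were far deeper, so more reads of a main arm need not mean a higher level. The main arm miR-99b-5p was called higher in plasma (−4.56, adjusted p = 0.002). The main arm miR-126a-3p had no call (−1.10 ± 0.54). Its mean share of miRNA reads was lower in plasma, at 2.11% against 8.11% in BAT. For miR-27a the raw reads of the minor arm overlapped, and its share of the hairpin was lower in plasma: miR-27a-5p had 19, 6 and 15 reads in BAT and 6 and 23 in plasma.

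**Figure D5:**
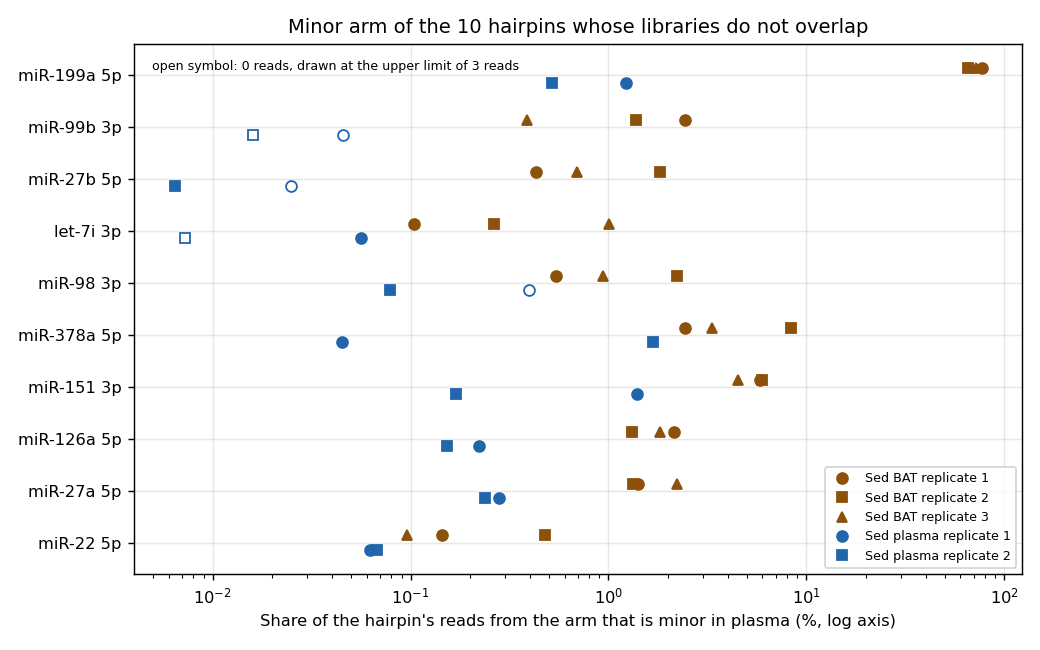
Share of a hairpin's reads that came from the arm that is minor in plasma (horizontal, percent, log axis) in each Sed library, for the 10 hairpins whose BAT (brown) and plasma (blue) libraries did not overlap. Open symbols stand for 0 reads and are drawn at the limit of 3 reads. For miR-199a this is the 5p arm, at 65.6% to 77.2% in BAT and 0.52% and 1.22% in plasma.

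Mature sequences were found in RefSeq for 175 of the 207 tested miRNAs and 68 of the 81 called. Lengths did not distinguish the sources: the median was 22 bases for both, and the median share of G and C was 47.7% in the 32 miRNAs higher in BAT and 45.5% in the 36 higher in plasma and in all 175. The letters GGAG, part of a vesicle-sorting motif, occurred in 5 of the 32, in 1 of the 36 and in 15 of the 175 (8.57%), read on the mature strand only. The letters CCCU occurred in 5 of 32, 1 of 36 and 12 of 175 (6.86%), and UUGG in 3 of 32, 5 of 36 and 17 of 175 (9.71%). These are counts of letters and were not tested.

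miRNAs listed in 1 table only held under 0.8% of reads in each library. The most abundant on the BAT side were miR-6538 (414, 178 and 454 reads) and miR-709 (132, 103 and 47), followed by miR-1949, miR-5121 and miR-1291. Among the muscle miRNAs, miR-133b-3p (16, 29 and 23 reads) and miR-208b-3p (10, 17 and 12) are also listed for BAT only. On the plasma side were miR-215-3p (639 and 0 reads), miR-7b-5p (8 and 294), miR-219a-2-3p, miR-122b-5p and miR-200b-5p. A miRNA missing from a table has no count there, so no fold change was computed.

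The Exe libraries, which the Sed comparison does not use, gave the same contrast side by side. Of 202 miRNAs tested, 146 (72.3%) passed, 79 higher in BAT and 67 in plasma. Of the 81 Sed calls 72 were tested there, 62 had the same sign, 51 were called in the same direction and 6 in the other. Over all 182 miRNAs tested in both conditions, 137 had the same sign. miR-193a-3p had 311, 523 and 212 reads in Exe BAT and none in Exe plasma, and miR-193b-3p 2793, 3246 and 3312 in Exe BAT and none in Exe plasma. miR-146a-5p had 13954 and 26464 reads in Exe plasma against 171, 288 and 218 in Exe BAT (−4.72, adjusted p = 0.001). miR-32-5p had 28, 33 and 38 reads in Exe BAT and 4 and 1 in Exe plasma. These 4 miRNAs therefore lay on the same side in both sets of libraries. Among the 6 called the other way was miR-10b-5p, higher in BAT in Sed (3.25) and higher in plasma in Exe (−2.54, adjusted p = 0.008). It had 3207 and 5360 reads in Exe plasma and 235, 207 and 168 in Exe BAT.

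The difference between the Exe and the Sed contrast was tested directly over all 10 libraries, and 68 of 234 miRNAs (29.1%) passed, 27 of them among the 81 Sed calls. miR-451a had 134144 and 232086 reads in Exe plasma and was still higher in plasma, but by less than in Sed (difference 3.61 ± 0.62, adjusted p = 0.003). The 4 epithelial calls of Sed divided: miR-429-3p had 747 and 3078 reads in Exe plasma and at most 4 in an Exe BAT library, miR-200c-3p had 17 and 11 in Exe plasma, miR-205-5p had 228 and 284 reads in Sed plasma and 0 in both Exe plasma libraries, and miR-31-5p had 375 and 736 in Sed plasma and 4 and 2 in Exe plasma. Likewise miR-122-3p had 212 and 934 reads in Sed plasma and 0 in Exe plasma, whereas miR-122-5p had 45542 and 67227 in Exe plasma. miR-25-3p went the other way, with 36898 and 122512 reads in Exe plasma and 32, 60 and 56 in Exe BAT (difference −3.04 ± 0.62, adjusted p = 0.006). In BAT each of miR-205-5p, miR-31-5p, miR-122-3p and miR-25-3p had at most 60 reads in every Sed and Exe library. Whether these shifts lay in plasma, in BAT or in both was not tested, and each plasma group has 2 libraries.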

How the data were processed

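Mature miRNAs were counted from vesicle RNA (Trizol extraction, Illumina libraries, per the labels' protocols). The authors deposited a table for each source that gives, per the file headers, every library's read count of each mature miRNA. The deposited BAT table also holds RPM values (each equals its read count over 1 total per library, within 0.01), which were not used in tests. The deposited plasma table holds a second whole number beside each count, never above it and of unstated origin, used as an alternative. The submitters' processing notes name Bowtie 0.12.2, mm8 and mm9 without saying what each was used for. How reads were trimmed, filtered and counted is not given in the sources used here.

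Read counts were analysed as deposited with edgeR 4.0.16 (TMM, filterByExpr, robust quasi-likelihood test, Benjamini-Hochberg, adjusted p under 0.05) in R 4.3.3. Unless another tool is named, adjusted p-values come from this test, and SE is the log2 fold change over the square root of F. Sed and Exe contrasts were fitted on their own 5 libraries and the difference on all 10. The fits were tested on simulated data. Alternatives used DESeq2 1.42.0, limma 3.58.1 (voom), other scalings and filters, identical miRNAs counted once, a joint fit, the replicate number as a block, the second plasma values and leaving out each library; setting an arm at 0 to 3 reads was added after seeing the data. Bounds against a count of 0 use 3 reads over the group, and ratios with 1 to 3 reads carry exact 95% counting intervals. PCR copies are not independent molecules.

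The named miRNAs are the 10 largest differences each way past the threshold that average 10 counts or more and do not overlap, the 10 most abundant of each source, up to 4 members of smallest p from each of 20 lists, the 10 smallest p of the Exe and Sed difference, the 5 most counted miRNAs of each single table and the 6 hairpins with the largest arm difference. Other members are named where a count is given or a list is described. The members and lists were chosen with earlier results of these data known. Python 3.11.15, scipy 1.17.1, pandas 2.3.3 and matplotlib 3.10.9 were used for tables and plots.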

Additional observations from a re-analysis of the deposited data

Results flagged for a closer look

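For 32 of the named miRNAs the difference between BAT and plasma was itself different in the Exe libraries. This was the interaction test over 10 libraries (edgeR's quasi-likelihood test, adjusted p under 0.05), which 29.1% of all 234 tested passed. Of the 32, 10 were named for their small p in this same test. Their number therefore cannot be compared with that share. Values are log2, Exe minus Sed, so a positive value means a contrast shifted towards BAT in Exe. Where a group was at or near 0 reads the fitted value depends on the prior count and is no bound. This holds at least for miR-122-3p, miR-205-5p, miR-193b-3p, miR-203-3p, miR-338-3p, miR-29b-3p, miR-486a-3p, miR-206-3p, miR-146b-5p and miR-214-5p. It also holds for miR-9-5p, miR-9b-3p, miR-31-5p, miR-194-5p and miR-200c-3p.

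With at most 17 reads in an Exe plasma library, some miRNAs of the epithelial and neural lists, and miR-9b-3p (8.57), shifted towards BAT: miR-205-5p by 11.72, miR-203-3p by 8.64, miR-9-5p by 8.10, miR-31-5p by 8.08, miR-338-3p by 7.04 and miR-200c-3p by 6.02. Others on those lists did not pass, such as miR-429-3p (−2.02, adjusted p = 0.23) and miR-7a-5p (1.29, adjusted p = 0.29). Also shifted towards BAT were miR-122-3p by 16.22, miR-194-5p by 6.73, miR-122-5p by 3.91, miR-451a by 3.61, miR-27b-3p by 4.02 and miR-24-3p by 2.88. The same holds for miR-193b-3p (8.65), miR-30b-5p (6.27), miR-29b-3p (5.53), miR-34a-5p (2.83), miR-99b-5p (2.79) and miR-22-3p (2.04).

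Shifted towards plasma in Exe were the let-7 arms let-7c-5p (−4.37), let-7b-5p (−4.26) and let-7a-5p (−2.99). miR-486a-3p, with no Sed plasma read and 237 and 892 reads in Exe plasma, changed by −11.48, and miR-486b-3p by −7.50. The others were miR-146b-5p (−6.56), miR-214-5p (−6.33), miR-206-3p (−6.16), miR-10b-5p (−6.06), miR-30d-5p (−3.38), miR-322-5p (−3.30), miR-10a-5p (−3.20) and miR-25-3p (−3.04). Each group has 2 or 3 libraries, too few for a test of outlying libraries.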

How the results depend on the processing

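The count of 81 calls in the Sed contrast was 140 with library size alone, 36 without the 3 most abundant miRNAs (miR-451a, miR-378a-3p and miR-126a-3p) and 26 with the replicate number as a block. The Sed labels share 2 replicate numbers with no stated pairing, and deviations of same-numbered libraries correlated at −0.11 and −0.18. With only 2 plasma libraries, the deviations of each mirror those of the other, so these values cannot decide whether libraries are paired. The cause of these changes in the number of calls was not tested. Leaving out a library gave 35 to 165 calls: 38, 52 and 35 without BAT replicate 1, 2 or 3, and 156 and 165 without plasma replicate 1 or 2, where the lone plasma library is assumed to vary like the BAT libraries. DESeq2 called 111, no filter 98 (39 higher in BAT and 59 in plasma), upper-quartile factors 89, limma-voom 79 and the second plasma values 76, and the split towards BAT was 90.7% with library size alone and 65.2% with upper-quartile factors against 49.4%. The Exe count of 146 was 63 with a mean of at least 50 counts, 35 with the replicate block and 62 to 213 without a library. The interaction count of 68 was 34 with the replicate block, 44 with the second plasma values, 102 with DESeq2 and 36 to 119 without a library.

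With library size alone the log2 fold change of many miRNAs reversed, and the values given are examples. It became 2.90 for miR-22-3p, 1.95 for miR-126a-3p, 2.38 for miR-26a-5p, 0.034 for miR-16-5p and 1.10 for let-7f-5p. Reversed too were miR-27a-3p (0.77), miR-21a-5p (0.97), miR-218-5p (2.79), miR-338-3p (2.91), let-7d-5p (1.002) and miR-30b-5p (0.92). Further examples were miR-92a-3p (0.61), miR-10a-5p (2.29), miR-99a-5p (1.31) and miR-203-3p (2.48). The arms let-7a-5p (−1.51 to 1.54) and let-7c-5p (−1.38 to 1.71) also changed sign. Without plasma replicate 2 that of miR-223-3p reversed to 9.69, where the remaining plasma library had no read, and without plasma replicate 1 it was −3.56. Hairpins with arms apart fell from 16 to 9 of 16 with the second plasma values and to 10 with an arm at 0 set to 3 reads. miRNAs expected at the common depth were 214.7 in BAT and 99.2 in plasma when 5 reads were asked for. Depth limits BAT most: 1 read in the shallowest BAT library is a larger share of reads than in plasma, so low BAT counts bound plasma calls loosely.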

Other observations

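The filter left out some miRNAs that plasma held and BAT hardly did, so they have no test. miR-215-5p, a liver and gut miRNA, had 3 and 14078 reads in plasma and 1, 0 and 0 in BAT, and almost all of it was in 1 plasma library. The neuronal miR-124-3p had 46 and 417 reads in plasma and none in BAT, at least 150.1-fold higher in plasma on the TMM scale. miR-375-3p, of endocrine cells, had 123 and 75 reads in plasma and 0, 2 and 1 in BAT, a ratio of 64.2 with a counting interval of 21.6 to 313.9. The Hox miRNA miR-196a-5p had 45 and 208 reads in plasma and 3, 0 and 3 in BAT.

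The second whole number of the plasma table made up 30.2% of the reads in Sed plasma replicate 1 and 4.67% in replicate 2, against 71.0% and 61.1% in Exe plasma. On those values miR-451a held 30.2% and 38.9% of Sed plasma, in place of 69.8% and 52.8% of reads. What the second number counts was not stated.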
